A study of Mus musculus with 4 samples.

Results

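The 9 genes described here are 6 keratin genes, Krt5, Krt14, Krt7, Krt8, Krt18 and Krt19, and 3 genes used to mark the coelomic epithelium and its neighbours, Upk3b, Msln and Pax8. They were chosen by name, and each was represented by the single transcript cluster that the annotation of the array pairs with it, so that 9 of 30738 genes were followed across 4 DNA microarrays. Primordial germ cells (PGCs) were sorted with magnetic beads against SSEA-1, a sugar epitope on their surface, from E12.5 gonads freed of the mesonephros, and all embryos were C57/BL6, homozygous for the floxed Max allele and exposed to tamoxifen at E8.5. F and M denote female and male germ cells with no CreERT2, and FC and MC denote female and male germ cells with the hemizygous Oct4-CreERT2 transgene, in which a distal enhancer of Oct4 drives the tamoxifen-dependent recombinase in germ cells. Each condition has 1 array, so no difference between conditions has a replicate check, and the number of embryos behind each RNA is not given in the sources used here. The comparisons ask how signals differed with CreERT2 in each sex and between the sexes with or without it.

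Keratins are the intermediate filament proteins of epithelia, and each filament needs a type I and a type II partner. Krt8 (type II) and Krt18 (type I) form the pair of simple, single-layered epithelia and are the earliest keratins of the embryo, Krt7 and Krt19 are further keratins of simple and ductal epithelia, and Krt5 (type II) and Krt14 (type I) form the pair of the basal layer of stratified epithelia such as skin. The coelomic epithelium is the mesothelial layer that covers the gonad, in which the uroplakin family gene Upk3b and the mesothelin gene Msln mark mesothelial cells, whereas Pax8 is a paired box transcription factor gene of the nephric lineage, to which the mesonephros next to the gonad belongs.

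Log2 signals were used as deposited, and a log2 difference of 1 is a 2-fold difference. The median of all genes was 4.47 (F), 4.48 (FC), 4.50 (M) and 4.55 (MC). As a guide to dim signals, 95% of 1088 olfactory receptor genes, which germ cells are not known to use, lay at or below 4.09 (F), 4.10 (FC), 4.18 (M) and 4.31 (MC). Probes differ in brightness, so this guide is approximate and levels were not compared between genes. The Max cluster had signals of 10.75 (F), 10.31 (FC), 10.64 (M) and 10.33 (MC), and it was not read by exon, so it does not measure the deletion. All 12 germ cell markers on a list lay above the olfactory guide on each array, as did the median of all genes. Signals of other cell types were also present. The Y-linked gene Eif2s3y was at 6.60 in F and 4.78 in FC, against 7.90 in M and 8.54 in MC. All 3 measured Y-linked genes lay above the olfactory guide on each array, the female ones included. The origin of the Y-linked signal on the female arrays was not tested.

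**Figure D1:**
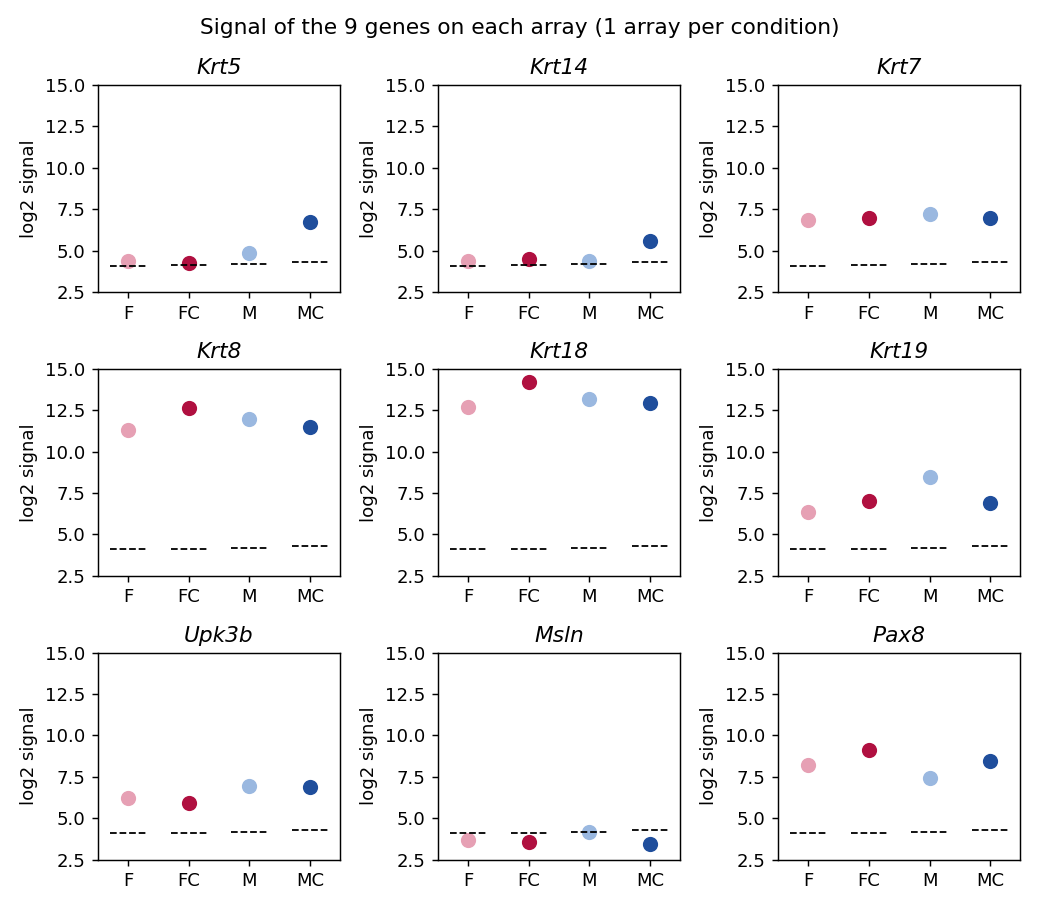
Log2 signal (vertical axis) of each of the 9 genes on the arrays F, FC, M and MC (horizontal axis), 1 point per array and no error bars because each condition has 1 array. Dashed lines mark the level below which 95% of olfactory receptor genes lie; Krt8 and Krt18 were highest in FC, Krt5 and Krt14 in MC and Krt19 in M, while Msln stayed at or below the line on every array.

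At the 2-fold threshold, different keratins stood apart in different conditions. Krt8 and Krt18 were higher in FC than in F, Krt5 and Krt14 were higher in MC than in M, and Krt19 was lower in MC than in M. Pax8 was higher with CreERT2 in both sexes, at 2-fold in male germ cells only. Between F and FC, 2 of the 9 genes were at least 2-fold higher in FC, where 0.547% of all genes were, and 0 were lower, where 0.508% of all genes were. Between M and MC, 3 of the 9 were higher in MC, against 0.224% of all genes, and 1 was lower, against 0.475%. The median log2 difference of the 9 genes was 0.13 in female germ cells, against -0.01 over all genes, and -0.21 in male germ cells, against 0.01. These genes were listed with earlier results of the same arrays known, so the counts describe them and are no evidence about keratins as a group.

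Krt18, the type I partner of simple epithelia, had signals of 12.71 (F), 14.19 (FC), 13.16 (M) and 12.95 (MC). FC stood above the other 3 arrays by at least 1.03, and F, M and MC lay within 0.45 of each other. The log2 difference between FC and F was 1.48, or 2.79-fold, and only 48 of 30738 genes had a larger one. Krt8, its type II partner, had signals of 11.28 (F), 12.61 (FC), 11.96 (M) and 11.49 (MC). Both partners thus had the same order of arrays, lowest in F, then MC, then M, and highest in FC. The log2 difference of Krt8 between FC and F was 1.33, or 2.51-fold, and FC exceeded M, the next highest array, by 0.65. In male germ cells the direction was the opposite, with MC minus M at -0.47 for Krt8 and -0.21 for Krt18, neither reaching 2-fold. In bulk samples such as these, fewer cells of a type and less RNA per cell cannot be told apart.

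The genes Krt8 and Krt18 are neighbours on mouse chromosome 15 (GRCm38.p6), at 101996711 to 102004342 on the minus strand and 102028216 to 102032026 on the plus strand. They are read away from each other, with 23874 bases between their RefSeq starts. The 250 bases before each start are shown because both genes had the same order of arrays and separate start regions. Capitals mark matches to GCGGGA, the core of E2F sites, and none of the other strings searched (below, beside Pax8) was found in either window.
Krt8, chr15:102004343-102004592, minus strand: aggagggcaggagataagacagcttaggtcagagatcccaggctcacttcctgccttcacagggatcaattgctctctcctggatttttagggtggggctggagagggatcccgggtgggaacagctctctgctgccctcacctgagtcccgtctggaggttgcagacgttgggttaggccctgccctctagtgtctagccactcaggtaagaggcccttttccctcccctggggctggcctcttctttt
Krt18, chr15:102027966-102028215, plus strand: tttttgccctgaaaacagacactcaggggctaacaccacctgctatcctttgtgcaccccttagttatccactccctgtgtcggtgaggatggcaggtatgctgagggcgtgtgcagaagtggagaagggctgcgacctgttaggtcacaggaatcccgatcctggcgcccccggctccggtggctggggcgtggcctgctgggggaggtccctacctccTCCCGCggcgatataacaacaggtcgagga
The match in Krt18 begins 30 bases before its start and reads TCCCGC, the reverse complement. Krt8 had none, and 16.9% of 32851 mouse promoter windows of this length had at least 1.

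Genes with a pattern like that of Krt8 and Krt18 were looked for by the distance between mean-centred log2 signals over the 4 arrays, among the 1532 genes whose signals span at least 1. The gene nearest to Krt8 was Dsp, the desmoplakin gene that ties keratin filaments to desmosomes, at a distance of 0.196. Dsp had signals of 6.94 (F), 8.08 (FC), 7.48 (M) and 6.88 (MC). Next were Sgpl1, the sphingosine-1-phosphate lyase gene, at 0.268, and the lncRNA gene 2410021H03Rik, at 0.271. The same 2 genes led for Krt18, at distances of 0.136 for 2410021H03Rik and 0.257 for Sgpl1, followed by Krt8 itself at 0.275. With 4 arrays, such likeness is a description and carries no test.

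Krt5, the type II keratin of basal cells, had signals of 4.36 (F), 4.23 (FC), 4.85 (M) and 6.71 (MC). MC was the high array, M lay next, and the female arrays were close to the olfactory guide. MC minus M was 1.86, or 3.63-fold, which only 7 of 30738 genes exceeded. Krt14, its type I partner, had signals of 4.38 (F), 4.51 (FC), 4.39 (M) and 5.56 (MC), so that F, FC and M lay within 0.13 and MC stood 1.05 above the next array. MC minus M was 1.17, or 2.25-fold. In female germ cells FC minus F was -0.13 for Krt5 and 0.13 for Krt14. Thus the basal pair was highest in MC and the simple pair highest in FC, and no keratin reached 2-fold with CreERT2 in both sexes.

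Krt5 lies on chromosome 15, at 101707069 to 101712905 on the minus strand, and Krt14 on chromosome 11, at 100203162 to 100207510. The Krt5 start region is shown because this gene had the largest difference of the 9 in male germ cells. Capitals mark ATAAAA, a string like the TATA box that positions transcription.
Krt5, chr15:101712906-101713155, minus strand: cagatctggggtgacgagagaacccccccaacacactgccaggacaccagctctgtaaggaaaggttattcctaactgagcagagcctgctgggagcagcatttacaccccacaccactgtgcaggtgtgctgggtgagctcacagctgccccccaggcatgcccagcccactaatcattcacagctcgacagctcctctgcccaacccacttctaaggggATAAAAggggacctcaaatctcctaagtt
It begins 29 bases before the Krt5 start, and 17.0% of all windows held ATAAAA or its reverse complement TTTTAT, among them that of Krt7. The Krt14 window of the RefSeq table starts 1480 bases inside the span of the gene, so it is not shown.

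The genes nearest to Krt5 in pattern were Defb19, a beta-defensin gene, at a distance of 0.282, Ctrb1, a chymotrypsinogen gene, at 0.654, and Gstm2, a glutathione S-transferase gene, at 0.684. Defb19 was at 4.29 (F), 4.02 (FC), 4.40 (M) and 6.38 (MC). The genes nearest to Krt14 were Vmn1r183, a vomeronasal receptor gene, at 0.078, the microRNA gene Mir5124a, at 0.082, and Olfr479, an olfactory receptor gene, at 0.179. Vmn1r183 was at 3.91 (F), 4.06 (FC), 4.01 (M) and 5.08 (MC). Olfr479 was at 3.81, 3.94, 3.92 and 4.84 in the same order. Both receptor genes thus had a difference of MC from M close to that of Krt14, at signals near the olfactory guide on the other 3 arrays.

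No other gene measured on a list of basal and stratified epithelium reached 2-fold with CreERT2 beside Krt5 and Krt14. Of 17 measured genes on such a list, 0 were at least 2-fold higher and 0 lower in MC than in M, and the same held in FC against F. Their medians were 0.02 in male and 0.03 in female germ cells. Trp63, the master transcription factor gene of basal cells, named after its values were seen, was at 3.99 (F), 3.77 (FC), 4.61 (M) and 3.99 (MC). Its MC minus M was -0.62, but it lay above the olfactory guide in M only. The hemidesmosome gene Col17a1, the laminin gene Lamb3 and the desmosomal genes Pkp1, Dsg3 and Dsc3 were among 7 of the 17 that stayed at or below the olfactory guide on each array. The integrin genes Itgb4 and Itga6 lay above it on each array. Markers of Sertoli cells, the supporting cells of the testis, were higher in MC along with Krt5. Of 8 such genes, 7 were above 0 in MC minus M and 2 were at least 2-fold higher, Cst9 at 1.51 and Amh, the anti-Muellerian hormone gene, at 1.02. The log2 of their summed signal was 8.15 (F), 7.92 (FC), 11.32 (M) and 12.72 (MC), most of it from Cst9 on the male arrays. Without Cst9, a sum added after the values were seen, it was 7.71 (F), 7.81 (FC), 8.33 (M) and 8.73 (MC). Aard alone was at or below the guide on each array. Their part in the Krt5 result was not tested.

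**Figure D2:**
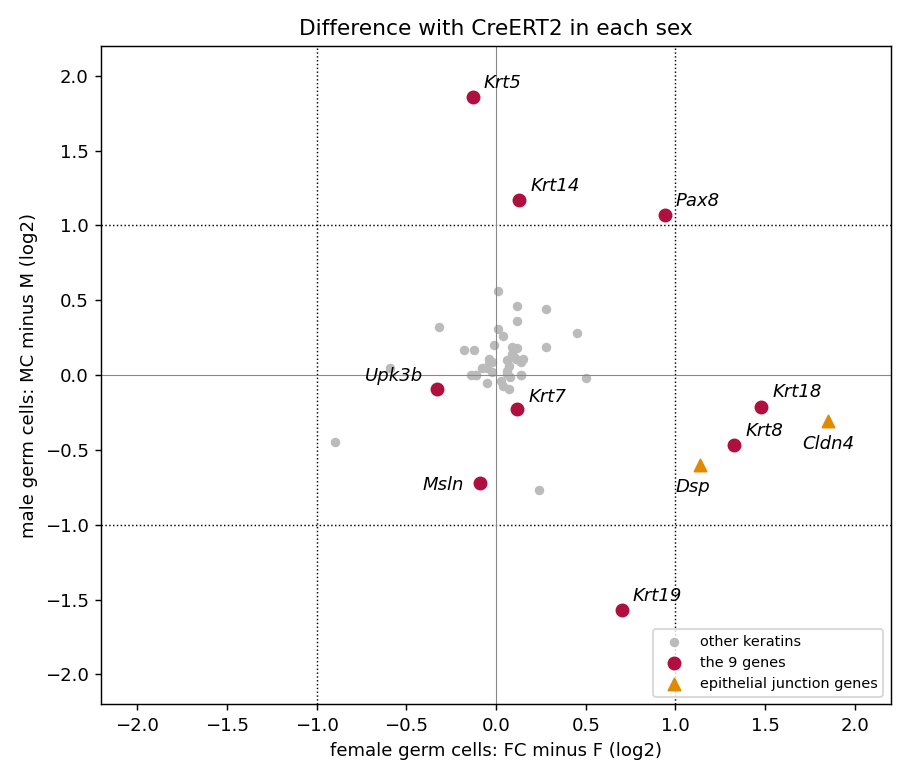
Log2 difference between germ cells with and without CreERT2 in females (horizontal axis, FC minus F) and males (vertical axis, MC minus M), 1 point per gene. Red points are the 9 genes, grey points the 43 other keratins and triangles 2 epithelial junction genes, and dotted lines mark 2-fold; Krt8 and Krt18 lie with Cldn4 and Dsp at the right, Krt5 and Krt14 at the top and Krt19 at the bottom, while all grey points stay inside the lines.

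Krt19, a type I keratin of ductal epithelium, had signals of 6.33 (F), 7.03 (FC), 8.46 (M) and 6.89 (MC). M stood 1.43 above the next array, while F, FC and MC lay within 0.70 of each other. MC minus M was -1.57, or 2.97-fold lower in MC. M minus F was 2.13, or 4.38-fold, which 12 of 30738 genes exceeded. Krt7 had signals of 6.85 (F), 6.97 (FC), 7.19 (M) and 6.96 (MC), a range of 0.34 over the 4 arrays and the narrowest of the 9 genes. Msln was at 3.66 (F), 3.57 (FC), 4.15 (M) and 3.43 (MC), at or below the olfactory guide on each array, and was highest in M as Krt19 and Krt7 were.

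The genes nearest to Krt19 in pattern were the antisense RNA gene Peg3os, at 0.351, Shh, the Sonic hedgehog gene, at 0.405, and the ectonucleotidase gene Entpd3, at 0.414. Shh was at 3.52 (F), 3.71 (FC), 5.17 (M) and 3.76 (MC). Entpd3 was at 3.36 (F), 3.60 (FC), 5.02 (M) and 3.42 (MC). Both Shh and Entpd3 lay below the olfactory guide on F, FC and MC, unlike Krt19. Of 17 genes on a list of basal and stratified epithelium, 6 were highest in M and 9 in MC, and the median of M minus F was 0.09. Of the 43 other keratins, 4 were highest in M and 18 in MC. The share over all genes was not counted, and MC had the highest median of all genes. The only 2 of the 17 at 2-fold in M minus F, chosen after their values were seen, were Krt15 and Grhl3, both highest in M. Krt15, a type I keratin, was at 3.94 (F), 4.18 (FC), 5.56 (M) and 4.79 (MC), and Grhl3, a transcription factor gene of surface epithelium, was at 5.57, 5.77, 6.60 and 5.65 in the same order. Platelet genes differed between the same arrays, with Pf4 at 7.14 (F), 6.29 (FC), 10.93 (M) and 7.49 (MC). Of 8 leukocyte and platelet markers, 3 were at least 2-fold lower in MC than in M, with a log2 of the summed signal of 8.18 (F), 7.64 (FC), 11.15 (M) and 8.35 (MC). Without Pf4 it was 7.23 (F), 6.92 (FC), 8.30 (M) and 7.20 (MC), and Ptprc and Fcer1g were at or below the guide on each array. The part of the cells behind these signals in the Krt19 result was not tested.

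Upk3b, the mesothelial uroplakin gene, had signals of 6.23 (F), 5.90 (FC), 6.97 (M) and 6.88 (MC). Both male arrays were above both female arrays, and the arrays of each sex lay within 0.33 of each other. FC minus F was -0.33, MC minus M was -0.09 and MC minus FC was 0.98. Its nearest genes in pattern were the pseudogene Gm14328, at 0.05, S1pr3, a sphingosine-1-phosphate receptor gene, at 0.054, and Erbb3, a receptor tyrosine kinase gene, at 0.059. Upk1b, another uroplakin gene, named after its values were seen, was at 7.23 (F), 7.28 (FC), 8.81 (M) and 9.38 (MC), also higher on both male arrays. Of the 14 genes on the coelomic list, Upk1b among them, M minus F was above 0 in 7 and below 0 in 7, with a median of 0.015. In 5 of the 14, both male arrays were above both female arrays. The same held in 6 of 17 basal and stratified genes and 6 of 43 other keratins, and the share over all genes was not counted.

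Pax8 had signals of 8.20 (F), 9.14 (FC), 7.41 (M) and 8.48 (MC). The arrays with CreERT2 were above those without it in both sexes, and the female array was above the male array with and without it. FC minus F was 0.94, or 1.92-fold, and MC minus M was 1.07, or 2.10-fold. A limma fit over all 4 arrays, blocked by sex and left with 1 residual degree of freedom, put the common difference of Pax8 at 1.005 (standard error 0.0903, adjusted p = 0.663, unadjusted p = 0.00173), higher with CreERT2 in 2 of 2 sexes. Its unadjusted p ranked 21 among 30738 genes, and its adjusted p ran from 0.595 to 0.995 over the alternative settings. In this limma fit 0 genes, 0.0%, passed an adjusted p of 0.05, and 2243 had an unadjusted p below 0.05. The other 8 genes had adjusted p-values of 0.681 to 0.918 in the same limma fit.

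Pax8 lies on chromosome 2, at 24420551 to 24475599 on the minus strand. Its start region is shown because Pax8 was the member whose difference had the same direction and like size in both sexes. Capitals mark GCGGGA and CCGCCC, the reverse complement of the Sp1-like string GGGCGG.
Pax8, chr2:24475600-24475849, minus strand: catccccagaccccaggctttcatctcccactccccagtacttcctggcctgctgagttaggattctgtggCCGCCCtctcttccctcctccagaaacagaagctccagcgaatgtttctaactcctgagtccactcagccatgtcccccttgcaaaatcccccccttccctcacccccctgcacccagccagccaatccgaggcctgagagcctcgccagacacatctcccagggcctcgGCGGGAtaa
GCGGGA begins 9 bases before the start. Windows were found for 7 of the 9 genes in the RefSeq table, counting the displaced Krt14 window, and none held CACGTG, the E-box to which MAX dimers bind, on either strand. Of all 32851 windows, 6.02% held it. The other strings searched on both strands were TATAAA, in 12.4% of all windows and none of the 7, and GGGCGG, in 32.7% of all windows, 4 times in Krt7 and 1 time in Pax8. ATAAAA and TATAAA can overlap. A match is no proof of a site, and a missing match says only that these letters are not in these windows.

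The genes nearest to Pax8 in pattern were Fthl17b, a ferritin-like gene, at 0.078, Sowahb, at 0.091, and D1Pas1, a germline DEAD-box helicase gene, at 0.257. Fthl17b was at 9.06 (F), 9.94 (FC), 8.21 (M) and 9.23 (MC). Of 10 measured genes on a list of mesonephric duct and tubule genes, 2 were at least 2-fold higher in FC than in F and 7 were below 0, with a median of -0.23. In MC against M, 0 were higher and 1 was lower, with a median of 0.25. Cdh16, a cadherin gene of renal tubules, was at 9.0 (F), 10.11 (FC), 8.93 (M) and 9.29 (MC). Cdh6, another cadherin gene of the nephron, was at 7.27, 8.37, 7.74 and 8.14 in the same order. Pax2, the close relative of Pax8, named after its values were seen, was at 8.5 (F), 8.95 (FC), 8.06 (M) and 8.83 (MC), the same order of arrays as Pax8 and Cdh16. Cdh16, Cdh6 and Pax2 were the only 3 of the 10 above 0 in FC minus F. Of the 7 below 0, Ret was at -0.91 and Calb1 at -0.69. Osr1, a transcription factor gene of the intermediate mesoderm, was lower in MC than in M, with 4.51 (F), 4.43 (FC), 5.91 (M) and 4.57 (MC). All 10 genes lay above the olfactory guide on each array, but so did the median of all genes. Whether any mesonephric cells remained in the gonads was not tested.

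**Figure D3:**
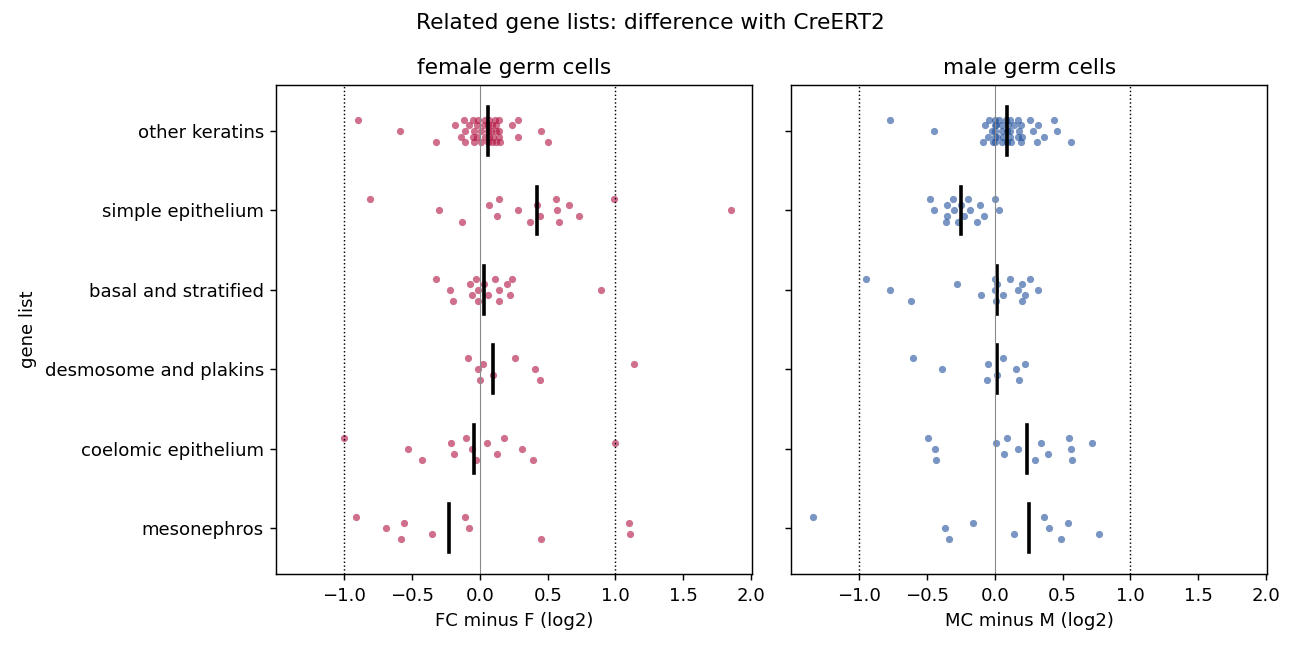
Log2 difference with CreERT2 (horizontal axes) for each measured gene of 6 related lists (rows) in female (left, FC minus F) and male germ cells (right, MC minus M). Each point is a gene, black bars are list medians and dotted lines mark 2-fold; genes of simple epithelium lay mostly above 0 in females, with a median of 0.42, and mostly below 0 in males, with a median of -0.25, and the other keratins stayed between the dotted lines.

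The median of a simple epithelium list had opposite signs in the sexes, a difference that was not tested. Of 17 genes of junctions, protease inhibitors and regulators of simple epithelia, 14 were above 0 in FC minus F, with a median of 0.42 against -0.01 over all genes. In MC minus M 15 were below 0, with a median of -0.25 against 0.01. The arrays without CreERT2 also differed, as 16 of the 17 were above 0 in M minus F, with a median of 0.31 against -0.01. The shares of all genes above and below 0 were not counted. Only Cldn4, a claudin gene of tight junctions, reached 2-fold, with 11.67 (F), 13.52 (FC), 11.89 (M) and 11.58 (MC). FC stood 1.63 above the next array, and FC minus F was 1.85. Of the genes short of 2-fold, chosen after their values were seen, the claudin gene Cldn3 was at 0.99 and the Hai-1 protease inhibitor gene Spint1 at 0.73 in female germ cells. Against this direction, the splicing regulator gene Esrp1 was at -0.81, Cdh1, the E-cadherin gene, at -0.30 and Epcam at -0.13 in female germ cells. All 17 lay above the olfactory guide on each array, as did the median of all genes. Among 9 desmosome and plakin genes, Dsp alone reached 2-fold, at 1.14 in female germ cells, while MC minus M was -0.60. The list medians were 0.10 and 0.02, the second of which turned below 0 with median centring.

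Endothelial markers moved between the same female arrays. Of 7 such markers, 4 were at least 2-fold lower in FC than in F, with a median of -1.13, and none was at or below the guide. The log2 of the summed signal of the 7 was 11.09 (F), 10.30 (FC), 11.31 (M) and 11.24 (MC). Without Pecam1, which had a range of only 0.19 over the arrays, it was 10.6 (F), 9.24 (FC), 10.91 (M) and 10.85 (MC). The Y-linked signal was also lower in FC than in F. Both signals were lower in FC than in M and MC too, as the log2 of the summed Y-linked signal was 7.56 (F), 6.23 (FC), 8.68 (M) and 9.14 (MC). Their part in the Krt8 and Krt18 results was not tested.

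The other keratins of the array were mostly dim. Of 43 measured keratin genes outside the 9, 0 were at least 2-fold higher or lower with CreERT2 in either sex, with medians of 0.06 and 0.09, while 1, Krt15, was 1.62 higher in M than in F. Their CreERT2 differences ran from -0.90 to 0.50 in female and from -0.77 to 0.56 in male germ cells. On all 4 arrays, 27 of the 43 lay at or below the olfactory guide, 14 of the 25 on chromosome 11, where most type I genes lie, and 13 of the 18 on chromosome 15, where the type II genes lie. The brightest, Krt222, named for its signal after the values were seen, was at 6.03 (F), 5.13 (FC), 5.99 (M) and 5.54 (MC). Clusters that the annotation pairs with several keratins, such as Krt6a and Krt6b, were not analysed here.

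Of 14 genes on a coelomic epithelium list, 1 was at least 2-fold higher in FC than in F, Aldh1a2, an enzyme gene of retinoic acid synthesis, and 1 was lower, Bnc1, a zinc finger gene of mesothelium. Aldh1a2 was at 7.57 (F), 8.57 (FC), 8.62 (M) and 8.13 (MC), so F was the low array. Bnc1 was at 7.64 (F), 6.64 (FC), 6.80 (M) and 7.36 (MC). Both lie exactly on the 2-fold threshold. Aldh1a2 fell short of it with median centring, and Bnc1 with quantile normalization and cyclic loess. No gene of this list reached 2-fold in MC against M, and the medians were -0.045 and 0.235. Wt1, a transcription factor gene of the coelomic epithelium and gonadal somatic cells, named after its values were seen, was at 5.86, 5.99, 6.12 and 6.29 in F, FC, M and MC. Of the 14, only Muc16, like Msln a mesothelial surface gene, lay at or below the guide on each array.

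Between the sexes without CreERT2, Krt19 was the only member at least 2-fold higher in M than in F, where 0.729% of all genes were, and 0 members were lower, where 0.605% were. Of the 9 genes, 8 were above 0 in M minus F and Pax8 was at -0.79. Krt14, at 0.01, turned to -0.13, -0.08 and -0.09 with quantile normalization, median centring and cyclic loess. The median was 0.49, against -0.01 over all genes. With CreERT2, Krt5 was 2.48 and Krt14 1.05 higher in MC than in FC, 2 of 9 genes against 0.979% of all genes, and Krt8 and Krt18 were lower, 2 of 9 against 1.42%. The 4 comparisons share arrays, so these differences are not separate from those with CreERT2. Of these members, Krt14 fell short of 2-fold in MC minus FC under other scalings of the arrays, at 0.94 to 0.96. Male and female arrays also differed in Sertoli markers, of which 3 of 8 were at least 2-fold higher in MC than in FC and 2 in M than in F, and in the 3 measured Y-linked genes. Germ cell markers were mostly lower on the male arrays. Of 12, 11 were below 0 in M minus F and 8 in MC minus FC, with medians of -0.375 and -0.4. Their part in the differences between the sexes was not tested.

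**Figure D4:**
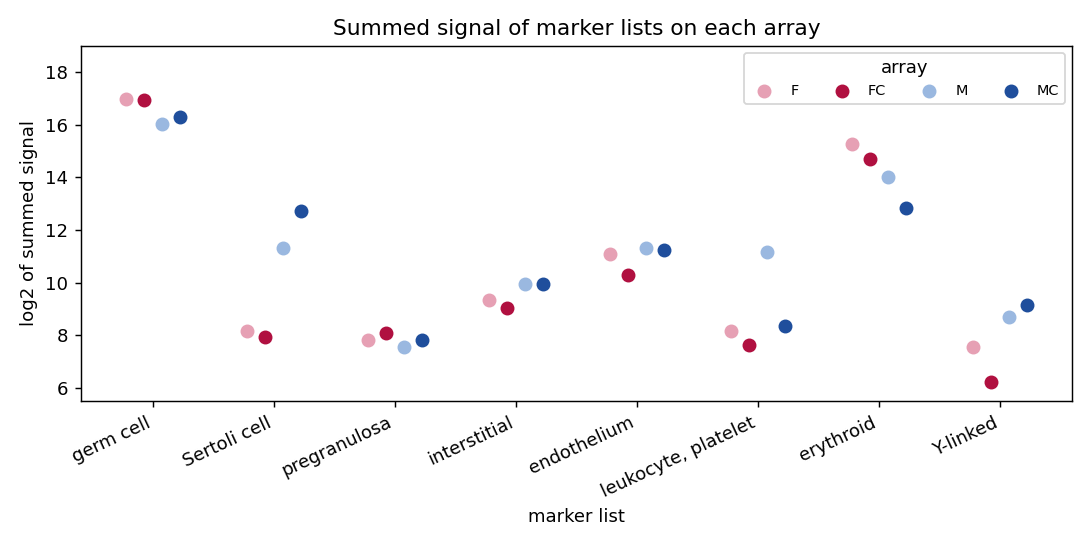
Log2 of the summed linear signal (vertical axis) of each marker list (horizontal axis) on the arrays F, FC, M and MC, 1 point per array. Sertoli cell markers were highest in MC, at 12.72 with Cst9 and 8.73 without it, leukocyte and platelet markers in M, at 11.15, and endothelial markers lowest in FC, at 10.30.

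Of the marker lists not yet given, 0 of 6 pregranulosa and 0 of 5 interstitial markers were at least 2-fold higher or lower with CreERT2 in either sex. Foxl2 was at or below the guide on each array. Of 6 erythroid markers, 1 was lower in MC than in M, the embryonic globin gene Hbb-y, at -1.22, with Epb42 at or below the guide. Of 12 germ cell markers, 1 was at least 2-fold higher in FC than in F and 2 in MC than in M, with medians of 0.055 and 0.12.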

How the data were processed

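The values used are the log2 signals that the authors deposited, rounded to 2 decimals, for 65956 transcript clusters, between 2.29 and 19.85. Robust multiarray analysis in R after subtraction of background is what the Methods describe, whereas the labels name Transcriptome Analysis Console, so the software is not settled, nor is the array type, since the array named in the Methods carries other identifiers. Clusters were named from the array annotation and updated to RefSeq symbols of GRCm38.p6. Of them, 30638 carried 1 symbol, 654 carried several that stand for 1 gene, 1522 of several genes were left out and 33142 were not in the annotation table. Where a gene had several clusters, that with the highest mean signal stood for it, which left 30738 genes.

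Differences were counted at 2-fold with no test, because each condition has 1 array. A difference with CreERT2 shared by the sexes was estimated in limma (2 arrays with CreERT2 against 2 without, sex as a block, two-sided, Benjamini-Hochberg adjustment over all genes, threshold 0.05). The mean estimates of the fit were checked on simulated data with known differences and the same spread for all genes. Real genes differ in spread, so this check does not show how well the fit calls genes in these data. The number of arrays limits the precision. By rule, the named genes are the 9 members, Max, up to 3 genes of each related list at 2-fold with CreERT2 and the 3 genes nearest in pattern to each member that spans at least 1, with genes of other cell types where they stand beside a result. Genes named outside this rule were chosen after their values were seen. The members and lists were chosen with earlier results of these data known. Promoter windows are from RefSeq (GRCm38.p6), and the strings searched in them other than CACGTG were chosen after the windows were seen. Alternatives were quantile normalization, median centring, cyclic loess, averaging the clusters of each gene, keeping every cluster, a filter at the median signal, thresholds of 1.5-fold and 3-fold and, in limma, a prior variance with a trend or leaving out the sex block. Python 3.11.15, numpy 2.4.6, pandas 2.3.3, matplotlib 3.10.9, R 4.3.3 and limma 3.58.1 were used.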

Additional observations from a re-analysis of the deposited data

Results flagged for a closer look

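In 4 of the 9 genes the difference with CreERT2 reached 2-fold in 1 sex and had the opposite sign in the other, as in 175 of 30738 genes (0.569%). The 9 genes were listed with earlier results of these arrays known, so this count describes them and is no evidence about keratins as a group. The male difference less the female difference was 1.99 for Krt5, -1.80 for Krt8, -1.69 for Krt18 and -2.27 for Krt19. For Krt5 the female difference was only -0.13. For Krt18 the male difference was only -0.21, and -0.03 with quantile normalization. Among named genes of the related lists, the male difference less the female difference was -2.16 for Cldn4, -1.74 for Dsp, -1.49 for Aldh1a2 and 1.56 for Bnc1. None of these differences between sexes was tested, as each condition has 1 array.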

How the results depend on the processing

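Each 2-fold difference with CreERT2 among the 9 genes kept its direction and stayed at 2-fold under quantile normalization, median centring, cyclic loess and the mean of a gene's clusters. Pax8 in FC minus F reached 2-fold with cyclic loess, at 1.06, and Upk3b in MC minus FC did too, at 1.01. In MC minus FC, Krt14 was at 0.95, 0.94 and 0.96 with quantile normalization, median centring and cyclic loess, so that 1 gene was higher with the first 2 of these. At 1.5-fold, 4 genes were higher in FC, 2 lower in MC, 3 higher and 1 lower in M than F. At 3-fold, 0 were higher in FC, 1 higher and 0 lower in MC than M, and 1 higher and 0 lower in MC than FC. Simple epithelium genes higher in FC numbered 2 with quantile normalization and cyclic loess. With median centring, 1 basal gene was lower in MC, the male medians of the basal and desmosome lists turned to -0.03, and 0 coelomic genes were higher in FC. With quantile normalization and cyclic loess, 0 coelomic genes were lower in FC. Over all genes, 69 were higher and 146 lower in MC than M as deposited, 98 and 105 with quantile normalization, 57 and 233 with median centring and 86 and 105 with cyclic loess. In M minus F the main split of 224 and 186 became 172 and 223, 167 and 261, and 278 and 147 under the same 3, and in MC minus FC 301 and 436 became 216 and 622 with median centring. The limma fit called 0 genes under each alternative. No pairing of replicates was possible, because each condition has 1 array and the labels give no replicate numbers. The block in limma is sex, so that fit compares the arrays with and without CreERT2 within each sex. Signals near the olfactory guide, as those of Msln, limit any statement on dim genes.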

Other observations

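Some adhesion genes, chosen after their values were seen, differed little over the arrays. Epcam was at 11.28 (F), 11.15 (FC), 11.30 (M) and 11.17 (MC), and Cdh3, the P-cadherin gene, was at 11.13, 10.93, 11.18 and 11.35 in the same order. Itga6, an integrin gene on the basal epithelium list, was at 7.68 (F), 7.71 (FC), 7.77 (M) and 7.79 (MC).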
